A study of Drosophila melanogaster with 36 samples.

Results

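The genes described here run the cell division cycle and the copying of DNA in Drosophila melanogaster. They are 33 genes named by their FlyBase symbols, of which 32 were matched and Orc1 was not analysed here. All 32 were measured in ovaries, heads and fat body and passed the filter on low values in each tissue, beside 9438 genes tested in ovaries, 11197 in heads and 10850 in fat body. The samples came from mated adult females that had been reared as larvae on a medium-quality diet (M, 100% sugar-yeast-agar, SYA) or a high-quality diet (H, 120% SYA). Adults of both treatments shared one diet. RNA-1 females were taken once 10% of their cohort was dead, and RNA-2 females once 60% was dead. These time points were set by mortality, so age in days may differ between M and H females. There were 3 libraries per tissue, diet and time, each from tissue of 11 or 12 females pooled, and p-values therefore measure the spread between pools. The fat body samples were the abdomen without gut and ovaries and can hold other abdominal cells.

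A cell licenses its origins of replication by loading the MCM helicase onto DNA, which needs the origin recognition complex and the loading factor dup (Cdt1), and which geminin blocks. Entry into S phase is driven by CycE with Cdk2 and by the E2F factors, and entry into mitosis by Cdk1 with its cyclins once the Cdc25 phosphatases stg and twe have activated it. In the fly ovary, germline cells divide in the germarium, nurse cells and follicle cells then copy their DNA without dividing (the endocycle), and nurse cells load the egg with maternal mRNAs of many mitotic regulators. Most cells of the adult head and fat body do not divide.

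The 36 libraries held totals of between 54370000 and 75350000 normalized counts, and their depth before normalization was estimated at between 38250000 and 222900000 read pairs. The deepest were ovary M RNA-2 replicates 1 and 3, at 203400000 and 222900000. The tissue labels were checked against marker genes. A list of 13 germline genes summed to between 3392 and 4267 CPM (normalized counts per 1000000 of a library's total) in ovary libraries, between 263 and 590 in heads and between 311 and 719 in fat body. Of this list, tud was not highest in ovaries, with median normalized counts of 26211 in heads, 21256 in fat body and 17759 in ovaries. The median of grk was 1719 in heads and 1590 in ovaries. For nos, vas, osk, bcd and zpg, the median level in a head library was 0.07% to 0.67% of the ovary level. A list of 11 eye and neuron genes summed to between 11654 and 44858 CPM in heads, at most 96.0 in fat body and at most 29.1 in ovaries. A list of 8 fat body genes summed to between 42741 and 179600 CPM in fat body, but also to between 36381 and 166120 in heads. Of this list, Lsp2 and Fbp1 had higher medians in heads (12485 and 5208 normalized counts) than in fat body (233 and 433). A list of 5 gut genes summed to between 1076 and 9012 CPM in fat body, at most 128 in heads and at most 18.7 in ovaries. The fat body libraries thus held gut mRNA, although the gut had been dissected away. In bulk tissue, fewer cells of a type and less RNA per cell cannot be told apart.

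All 32 genes were most abundant in ovaries. Every one of the 12 ovary libraries lay above every head and every fat body library for 32 of 32 genes, in CPM. The median gene was 56.8-fold higher in ovaries than in heads and 27.8-fold higher than in fat body, a comparison of tissues that were normalized separately and that is given without a test. The excess over heads was largest for the mitotic genes CycB (292-fold), polo (269-fold), stg (247-fold) and CycA (216-fold). It was smallest for fzr (1.62-fold), the activator of the anaphase-promoting complex that also acts in G1 and in endocycles, and for the E2F group: E2f1 (2.96-fold), its partner Dp (3.71-fold) and the retinoblastoma protein Rbf (5.64-fold). Per kilobase of transcript, CycB stood highest in ovaries at 1385 CPM (lowest library 1253, highest 1510), followed by CycA at 547 (504 to 595). PCNA, the sliding clamp, and RnrS, a subunit of ribonucleotide reductase, followed at 386 each and overlapped between libraries. The lowest levels per kilobase were those of the checkpoint kinase BubR1 (31.4), fzr (30.9) and the origin recognition subunit Orc6 (25.5), whose library ranges overlapped.

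In ovaries, most of the 32 genes rose between RNA-1 and RNA-2 in H females, while in M females most did not pass the test. In M females, 9 of the 32 genes rose, 1 fell and 22 did not pass. That is 28.1% higher and 3.12% lower, where 9.76% of all ovary genes were called higher and 10.6% lower, 20.4% in all (limma, Benjamini-Hochberg adjusted p under 0.05 over all genes). In H females 21 rose and 4 fell (65.6% and 12.5%), where 25% of all genes were called higher and 22.8% lower, 47.8% in all. The median log2 fold change of the 32 genes was 0.11 in M and 0.26 in H, against -0.0023 and 0.0058 over all genes, and the median standard error was 0.05. The changes were small: the highest was 0.53 on the log2 scale (CycB3 in H), which is 1.44-fold. All 9 genes that rose in M also rose in H, and Orc6 fell in both.

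**Figure D1:**
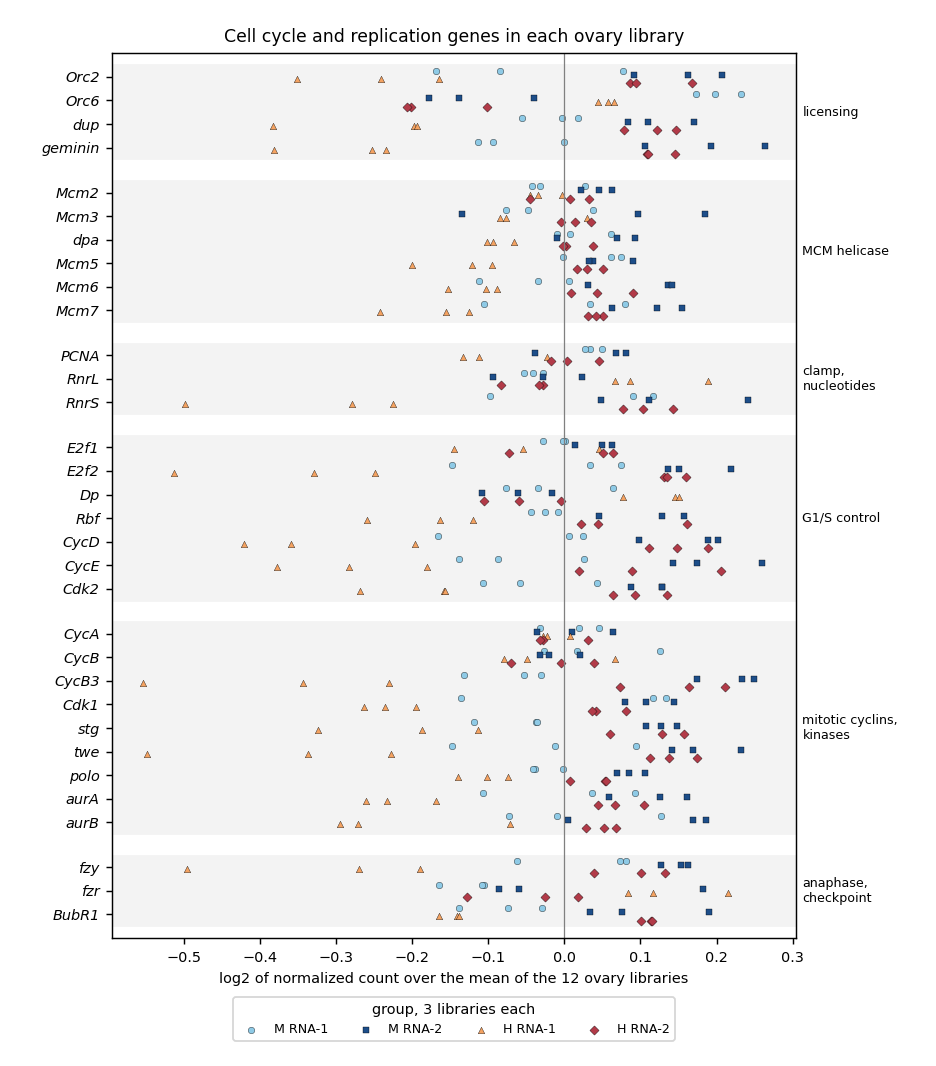
Each point is 1 of the 12 ovary libraries and each line of points 1 of 32 genes; the x axis is the log2 ratio of the normalized count to that gene's mean over the 12 libraries, and colours mark the 4 groups of 3 libraries. The 3 H RNA-1 libraries (orange triangles) lie below the other 9 libraries for 17 genes, and above them only for Dp and RnrL. The share of all ovary genes in this order was not computed. Against the M RNA-1 libraries alone, H RNA-1 lay wholly below for 20.2% of all ovary genes and wholly above for 20.2%.

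The licensing genes changed in both directions. Geminin, the inhibitor of licensing, measured 15287, 15502 and 16534 normalized counts at RNA-1 in M, then 19847, 17802 and 18897 at RNA-2, and in H it had 14062, 12686 and 13875 at RNA-1 and 18290, 17823 and 17852 at RNA-2. The time points did not overlap in either diet, and the H RNA-1 libraries were the lowest 3 of the 12. Geminin rose by 0.26 on the log2 scale in M (SE 0.05, limma adjusted p = 0.0078) and by 0.41 in H (SE 0.05, adjusted p = 0.00015). Orc2, a subunit of the origin recognition complex, rose by 0.21 in M and 0.37 in H. The loading factor dup rose by 0.37 in H but was at 0.13 in M (adjusted p = 0.091). Orc6, another subunit of that complex, went the other way. It had 1846, 1813 and 1890 normalized counts at RNA-1 and 1423, 1565 and 1461 at RNA-2 in M, and 1674, 1659 and 1683 against 1400, 1499 and 1394 in H. Every RNA-2 library was below every RNA-1 library, and Orc6 fell by 0.32 in M (SE 0.06, adjusted p = 0.0040) and by 0.23 in H (SE 0.06, adjusted p = 0.0060).

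The MCM helicase genes and PCNA changed less in H than the median of the 32 genes (0.26). Of the 6 MCM helicase subunits, Mcm6 rose in M (0.15), and Mcm5 (0.17), Mcm6 (0.16) and Mcm7 (0.22) rose in H. Mcm2, Mcm3 and dpa (Mcm4) did not pass in either diet, at 0.03, 0.06 and 0.10 in H. PCNA did not pass in either diet, with a 95% interval of -0.10 to 0.10 in M and a change of 0.10 in H (adjusted p = 0.090). The subunits of ribonucleotide reductase, which makes deoxyribonucleotides, moved apart in H. RnrS had 33910, 28038 and 32661 normalized counts at RNA-1 and 42570, 43755 and 41800 at RNA-2, a rise of 0.44 (SE 0.08, adjusted p = 0.00070), while RnrL had 30444, 33139 and 30841 and then 28487, 28388 and 27440, a fall of 0.16 (SE 0.05, adjusted p = 0.011). In M neither passed, at 0.10 for RnrS and 0.0080 for RnrL.

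Among the genes of the G1/S transition, CycE rose by 0.26 in M and 0.39 in H, its partner Cdk2 by 0.16 and 0.29, and CycD, the partner of Cdk4, by 0.21 and 0.47. CycE had 27269, 26323 and 29506 normalized counts at RNA-1 and 34695, 31995 and 32700 at RNA-2 in M, and 25559, 22292 and 23816 against 33417, 29367 and 30825 in H. Again neither diet's time points overlapped. E2f2, the repressing E2F factor, had 8530, 7102 and 8066 normalized counts at RNA-1 and 11095, 11325 and 11130 at RNA-2 in H, a rise of 0.51 (SE 0.07, adjusted p = 0.00018), and in M it was at 0.18 (adjusted p = 0.080). Rbf rose by 0.26 in H and Dp fell by 0.18. The activating factor E2f1 was at 0.05 in M and 0.07 in H (95% interval -0.05 to 0.18).

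The mitotic genes split between the abundant cyclins and the rest. CycB, the most abundant of all, had 253688, 235052 and 228092 normalized counts in M at RNA-1 and 229300, 235698 and 227340 at RNA-2, and 243514, 224711 and 220044 against 231652, 238857 and 221383 in H. All groups overlapped, and its log2 fold change in H was 0.0083 (95% interval -0.11 to 0.13). CycA was at 0.0051 in H (95% interval -0.09 to 0.10). CycB3, another mitotic cyclin, which also acts in female meiosis, had 33401, 31618 and 33898 normalized counts at RNA-1 and 40716, 39101 and 41182 at RNA-2 in M. In H it had 29511, 23600 and 27290, and then 40116, 38793 and 36452. CycB3 rose in both diets, by 0.29 in M (SE 0.07, adjusted p = 0.015) and by 0.53 in H (SE 0.07, adjusted p = 0.00017). The Cdc25 phosphatase of somatic divisions, stg, rose by 0.19 in M and 0.32 in H. The meiotic one, twe, had 10124, 8111 and 9386 normalized counts at RNA-1 and 13382, 13045 and 12818 at RNA-2 in H, a rise of 0.51 (SE 0.08, adjusted p = 0.00027), and was at 0.20 in M (adjusted p = 0.078). Cdk1 (0.28) and the mitotic kinases aurA (0.29), aurB (0.26) and polo (0.14) rose in H and did not pass in M.

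The activators of the anaphase-promoting complex, which ends mitosis by marking cyclins for degradation, differed. Fzy (Cdc20), which acts in mitosis, rose by 0.41 in H (SE 0.07, adjusted p = 0.00053) and was at 0.12 in M. Fzr (Cdh1) fell in H by 0.18 (SE 0.07, adjusted p = 0.043), from 5439, 5962 and 5568 normalized counts to 4697, 5043 and 5197, and was at 0.14 in M (adjusted p = 0.17). BubR1, of the spindle checkpoint, rose by 0.18 in M and 0.26 in H.

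**Figure D2:**
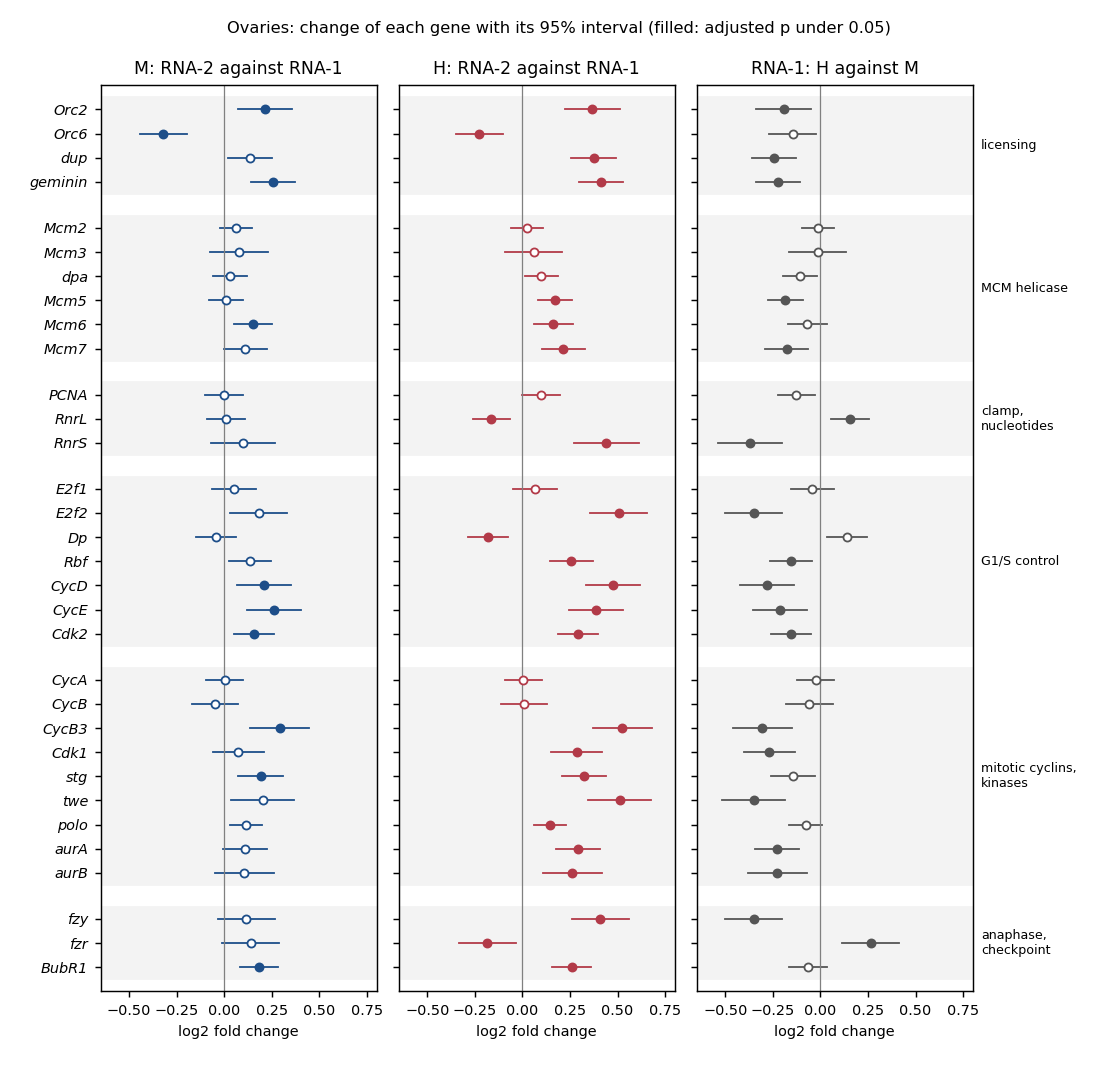
Log2 fold changes of the 32 genes in ovaries with 95% intervals from limma (x axis), for RNA-2 against RNA-1 in M, RNA-2 against RNA-1 in H and H against M at RNA-1; filled points have an adjusted p under 0.05. In M 10 points are filled and in H 25, and at RNA-1 17 of the 19 filled points lie below 0.

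How firmly the counts stand differed between the diets. In H, leaving out any 1 of the 12 ovary libraries kept 22 to 26 genes called, with a median change of 0.22 to 0.27. In M the same exercise gave 2 to 13 called genes and a median of 0.08 to 0.15. The count in M fell to 4 without M RNA-1 replicate 1, to 2 (geminin and Orc6) without M RNA-1 replicate 2, to 4 without M RNA-2 replicate 1 or 3, and to 6 without H RNA-2 replicate 2 or 3. Geminin and Orc6 were called in all 12 of these fits. Dividing by library totals in place of the deposited scaling shifted the median of all genes in H to 0.13. On that scale 27 of the 32 genes were called higher and 0 lower in H, so the falls of Orc6, fzr, Dp and RnrL in H were not called. In M it gave 15 higher and 1 lower (Orc6). Such a shift applies to every gene, and the shares of all genes called on that scale are not given here.

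The difference between the diets in these changes was tested in the same model. It had a median of 0.12 log2 units (H minus M) and was positive for 27 of 32 genes, but no gene passed, where 0% of all ovary genes did (limma). At an unadjusted p under 0.05 there were 12 genes of the 32, and 18.5% of all genes. The largest differences were those of RnrS (0.34, 95% interval 0.11 to 0.58, adjusted p = 0.17), E2f2 (0.32) and fzr (-0.32). Without M RNA-1 replicate 2 the test called 4 genes (Cdk1, CycD, E2f2 and RnrS), and without any other single library it called 0.

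At RNA-1, the ovaries of H females held less of these mRNAs than those of M females. Of the 32 genes 17 were lower in H and 2 higher (53.1% and 6.25%), where 13.5% and 11.5% of all genes were called, 25% in all (limma), with a median of -0.15 against -0.0021 over all genes. The lower genes were led by RnrS (-0.37), E2f2 (-0.35), twe (-0.35), fzy (-0.35), CycB3 (-0.30) and CycD (-0.28), and the higher ones were fzr (0.26) and RnrL (0.16), of which RnrL was not called after division by library totals. At RNA-2 none of the 32 was called (limma; 0.0318% of all genes were), none had an unadjusted p under 0.05 (4.27% of all genes did), and no log2 difference lay outside -0.09 to 0.01. The 17 genes lower in H at RNA-1 are all among the 21 that rose with time in H, but the H RNA-1 libraries enter both comparisons. By group mean, H RNA-1 was the lowest of the 4 groups for 28 genes and M RNA-2 the highest for 26, orders that were not counted over all genes. The count at RNA-1 fell from 19 to 2 (E2f2 and fzy) without H RNA-1 replicate 2, to 7 without M RNA-1 replicate 1 and to 1 (fzy) without M RNA-1 replicate 3, and was between 16 and 22 without any other library, with a median of -0.19 to -0.13 throughout.

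The order of the 4 ovary groups in these genes ran against their content of eggshell mRNA, which is made by late follicle cells. A list of 13 eggshell genes summed to between 24266 and 32141 CPM in H RNA-1 libraries and between 10323 and 18462 in M RNA-1. At RNA-2 it summed to between 1408 and 2974 in H and between 382 and 2266 in M. The 32 cell cycle genes summed to between 11670 and 12690 CPM in H RNA-1, 13140 and 14200 in M RNA-1, 14550 and 14850 in H RNA-2 and 14740 and 15010 in M RNA-2. Within the RNA-1 groups, H RNA-1 replicate 2 had the most eggshell mRNA of its group and the lowest value for 24 of 32 genes. M RNA-1 replicate 2 had the most of its group and the lowest value for 26, counts not made over all genes. In M RNA-2 the measures disagreed. M RNA-2 replicate 2 had the most eggshell mRNA of its group and the highest cell cycle sum of the 12 libraries (15010 CPM). Its mean log2(value + 1) of the 32 genes was the lowest of that group, at 14.18 against 14.23 and 14.21. H RNA-2 did not follow the order seen at RNA-1. In its replicates 1, 2 and 3 the eggshell means were 12.1, 11.84 and 10.91. The cell cycle means ran in the same order, at 14.19, 14.17 and 14.15. The germline list changed far less than the eggshell list, with a mean log2(value + 1) of 12.92 to 13.23 over the 12 libraries. It was highest in the H RNA-1 group. The mean of the 32 cell cycle genes ranged over a like span, from 13.9 to 14.23, and was lowest in that group. With each library's eggshell mean as a covariate, added after the data were seen, no gene was called with time in M (median 0.04) or in H (median 0.15), where 0% and 0.71% of all genes were. At RNA-1, 9 genes stayed lower in H (Cdk1, CycB3, CycD, E2f2, Mcm5, RnrS, dup, fzy and twe) and fzr stayed higher, where 8.26% of all genes were called. Eggshell levels did not overlap between time points, so eggshell content and time cannot be told apart in these fits.

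**Figure D3:**
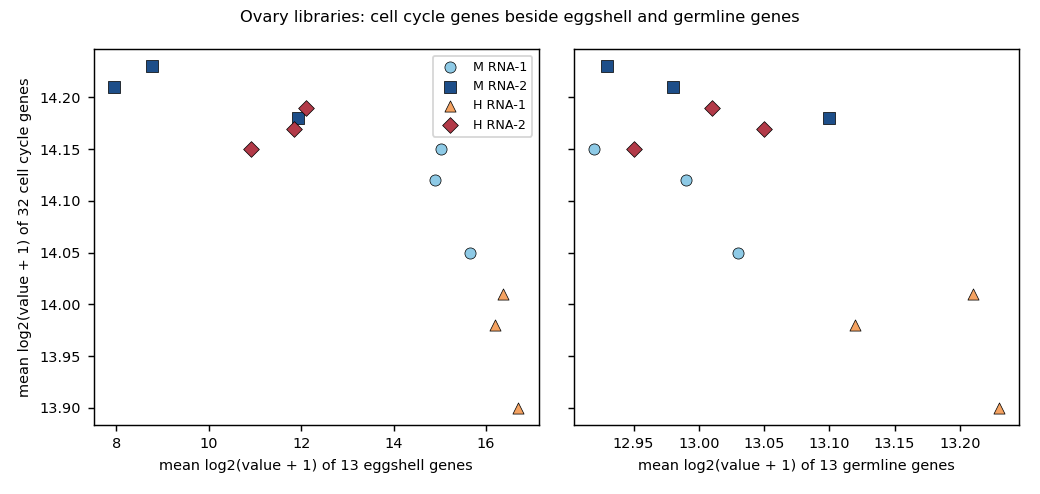
Mean log2(value + 1) of the 32 cell cycle genes in each of the 12 ovary libraries (y axis) against the mean of 13 eggshell genes (left) and of 13 germline genes (right). The H RNA-1 libraries have the highest eggshell means (16.2 to 16.7) and the lowest cell cycle means (13.9 to 14.01), while M RNA-2 replicates 1 and 3 have the highest cell cycle means (14.23 and 14.21) and the lowest eggshell means.

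In ovaries, further genes of the same processes were called higher with time more often than lower. Of 128 further genes, M had 24 higher and 1 lower at RNA-2 (18.8% and 0.781%), where 9.76% and 10.6% of all genes were called, and 103 of the 128 did not pass. H had 84 higher and 4 lower (65.6% and 3.12%), where 25% and 22.8% of all genes were called. The medians were 0.11 and 0.21. At RNA-1, 59 were lower in H (46.1%) and 3 higher, where 13.5% of all genes were called lower. In H the shares were highest for origin licensing, where 4 of 4 rose (Cdc6, a helicase loader, by 0.55 and Orc3 by 0.21), for the spindle checkpoint and kinetochore, where 13 of 16 rose (the checkpoint genes Bub1 by 0.42 and Bub3 by 0.27), and for the spindle, centrosome and cytokinesis, where 16 of 20 rose (the anillin gene scra by 0.52 and the centriole gene Sas-4 by 0.48). In that last list the microtubule regulators msps and tacc fell, by 0.47 and 0.34. Of the polymerases, clamp loader and fork enzymes 12 of 21 rose in H (PolA2 by 0.52 and Gnf1 by 0.31) and 0 of 21 in M by limma, where 6 had an unadjusted p under 0.05.

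The counts in the other lists, which were not tested as groups, stand beside the 25% of all ovary genes called higher in H. Of the cohesin and condensin genes 7 of 12 rose (barr by 0.52 and SMC1 by 0.42), and of the genes of the anaphase-promoting complex and chromatid separation 8 of 14 rose (the separase genes thr by 0.53 and Sse by 0.45) while its subunit ida fell by 0.31. Of the fork helicase and firing genes 7 of 11 rose (Mcm10 by 0.44 and CDC45L by 0.33), and of the DNA checkpoint genes 4 of 6 (the Chk2 kinase lok by 0.36 and p53 by 0.31). Of 10 further G1/S regulators 5 rose, among them the E2F repressor Rbf2 by 0.43 and the Cdk2 inhibitor dap by 0.41, and Cdk4 fell by 0.39. Of 7 Myb-MuvB genes 4 rose (lin-52 by 0.36 and mip120 by 0.32), and of 7 genes of mitotic entry 4 (the inhibitory kinase Myt1 by 0.32 and CycH by 0.30). In M, dap (0.43), barr (0.36), thr (0.33), Rbf2 (0.30) and Myt1 (0.26) rose as well.

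In heads the few called genes were of G1/S control and nucleotide supply. The median standard error was 0.11 for the G1/S genes and between 0.22 and 0.47 for the other roles. Smaller changes could thus pass among the G1/S genes. In M females 4 genes rose and 1 fell between RNA-1 and RNA-2, which is 15.6% where 32% of all head genes were called (15.8% higher and 16.1% lower, limma). E2f1 had 3520, 5085 and 3499 normalized counts at RNA-1 and 5867, 5797 and 6158 at RNA-2, a rise of 0.58 (SE 0.15, adjusted p = 0.017). Rbf had 2812, 3594 and 2613 and then 4002, 3789 and 4113, a rise of 0.41 (SE 0.11, adjusted p = 0.018). For both genes replicate 2 was the highest RNA-1 library, and the time points did not overlap. CycD rose by 0.29 (adjusted p = 0.027) and E2f2 fell by 0.29 (adjusted p = 0.034). RnrL, of ribonucleotide reductase, had 491, 560 and 805 normalized counts at RNA-1 and 1306, 1553 and 1422 at RNA-2, a rise of 1.23 (SE 0.41, adjusted p = 0.041).

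These head calls rested on few libraries. No gene was called in M without M RNA-1 replicate 1, 2 without M RNA-1 replicate 3, 1 without M RNA-2 replicate 1 or 3, 2 without M RNA-2 replicate 2 and 3 without H RNA-2 replicate 3, whereas 8 were called without H RNA-1 replicate 3. M RNA-1 replicates 1 and 3 were also both set aside, a choice made after seeing the data. This leaves 1 library in M RNA-1, replicate 2, whose spread is then taken from the other groups, so that fit cannot decide the calls. Division by library totals, which shifted the median of all head genes in M to 0.29, called 8 genes higher and 0 lower, so the fall of E2f2 was not called on that scale. The share of all head genes called on that scale is not given here.

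In H heads no gene was called by limma (19.5% of all genes were), and 2 had an unadjusted p under 0.05, as did 30.6% of all genes. RnrL had 558, 348 and 1496 normalized counts at RNA-1 and 1398, 1442 and 1333 at RNA-2, and PCNA had 213.1, 114.7 and 567.4 and then 548.3, 542.3 and 446.2. In both genes H RNA-1 replicate 3 was above every RNA-2 library of its diet, and the log2 fold changes of 1.07 (adjusted p = 0.099) and 1.08 (adjusted p = 0.19) did not pass. The same library held 219 normalized counts of aurB, against 38.7 to 79.2 in the other 11 head libraries, and 246 of fzy, against 20.1 to 130. It had the highest mean of the 32 genes of all head libraries but only the 10th highest mean of the germline list. Without it 6 genes were called higher in H (Cdk1, Mcm2, Mcm6, PCNA, RnrL and RnrS), a count for which the share of all genes is not given here. The test of the difference between the diets in their change called 0 of 32 genes (0.152% of all genes), and 1, E2f1, had an unadjusted p under 0.05 (18.1% of all genes). H against M at RNA-1 called 0 of 32 (3.39% of all genes), with 1 at an unadjusted p under 0.05 (31.5% of all genes), and at RNA-2 it called 0 (0.196%), with 0 unadjusted (5.22%). E2f1 was closest at RNA-1, 0.61 higher in H (SE 0.15, adjusted p = 0.053). Without M RNA-1 replicate 2 the diet by time test called 2 genes, H against M at RNA-1 called 4 and the change in H called 1, and without H RNA-1 replicate 1 H against M at RNA-1 called 1.

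**Figure D4:**
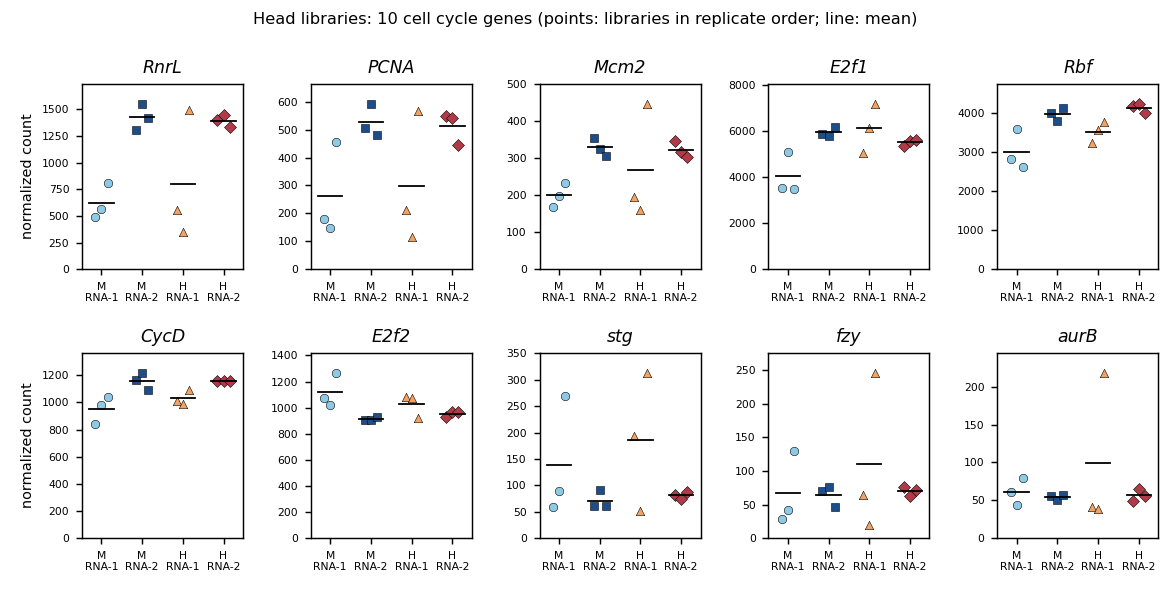
Normalized counts of 10 genes in the 12 head libraries (y axis, from 0), by group in replicate order, with the group mean as a line. RnrL and PCNA are low in 2 of 3 H RNA-1 libraries and high in replicate 3, which also holds 219 counts of aurB and 246 of fzy.

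Of 127 further cell cycle genes tested in heads, M had 15 higher and 7 lower at RNA-2, and H had 3 of each, which is 17.3% and 4.72% called where 32% and 19.5% of all head genes were. Those with the smallest p in M were Cks85A, a Cdk-binding subunit (-0.37), the polymerase subunit PolD3 (-0.37) and the checkpoint kinase Bub1 (0.42). In H they were Cdc7, the kinase that fires origins (-1.01), APC7 (1.13) and the kinetochore gene Zw10 (-0.24). At RNA-1 Cdc7 was 0.54 higher in H than in M (adjusted p = 0.026), a comparison that shares the H RNA-1 libraries with the change in H.

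In fat body 1 of the 32 genes was called in either diet, where 13.6% of all genes were called in M (8.52% higher and 5.07% lower) and 15.3% in H (6.55% higher and 8.76% lower, limma). E2f1 had 4669, 4607 and 4649 normalized counts at RNA-1 and 6089, 5895 and 6668 at RNA-2 in M, and 4706, 5443 and 4890 against 6063, 6062 and 6270 in H. Every RNA-2 library lay above every RNA-1 library, and E2f1 rose by 0.42 in M (SE 0.07, adjusted p = 0.0044) and by 0.29 in H (SE 0.07, adjusted p = 0.018). In M it was called whichever library was left out, but in H it was not called without H RNA-1 replicate 1 or 4, nor without H RNA-2 replicate 1 or 3. The other genes had large changes with large errors, with a median of -1.69 in M and 1.25 in H, and at an unadjusted p under 0.05 there were 8 genes in M and 4 in H, where 29.3% and 30% of all genes were.

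These medians moved with the libraries' germline mRNA. CycB had 19124, 5687 and 3388 normalized counts at RNA-1 and 986, 465 and 928 at RNA-2 in M, and 7622, 2794 and 1885 against 18277, 539 and 20145 in H. Expressed as a percentage of the ovary level of the same diet and time (CPM), the median of the 32 genes was 11.1 and 10.7 in H RNA-2 replicates 1 and 3 and 8.77 in M RNA-1 replicate 1, and at most 3.64 in the other 9 libraries. The median of 5 germline genes (nos, vas, osk, bcd and zpg) was 11.3, 10.4 and 5.75 in the same 3 libraries and at most 3.33 in the others. Ranked by the mean of the 32 genes and by the mean of the germline list, the 12 libraries came in the same order, except that H RNA-1 replicate 1 and M RNA-1 replicate 2 changed places. The eggshell list did not follow this order: it summed to at most 22.2 CPM in the H RNA-2 libraries and was highest in M RNA-1 replicate 2, at 894. For fzr, E2f1, Dp, Rbf, CycD and E2f2, the genes least enriched in ovaries, the lowest percentage lay above that of the highest germline gene in every library but M RNA-1 replicate 1, where it was 10.9 against 12.8. These genes were picked for their low ovary excess in the same values, so high percentages were largely fixed by the choice.

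**Figure D5:**
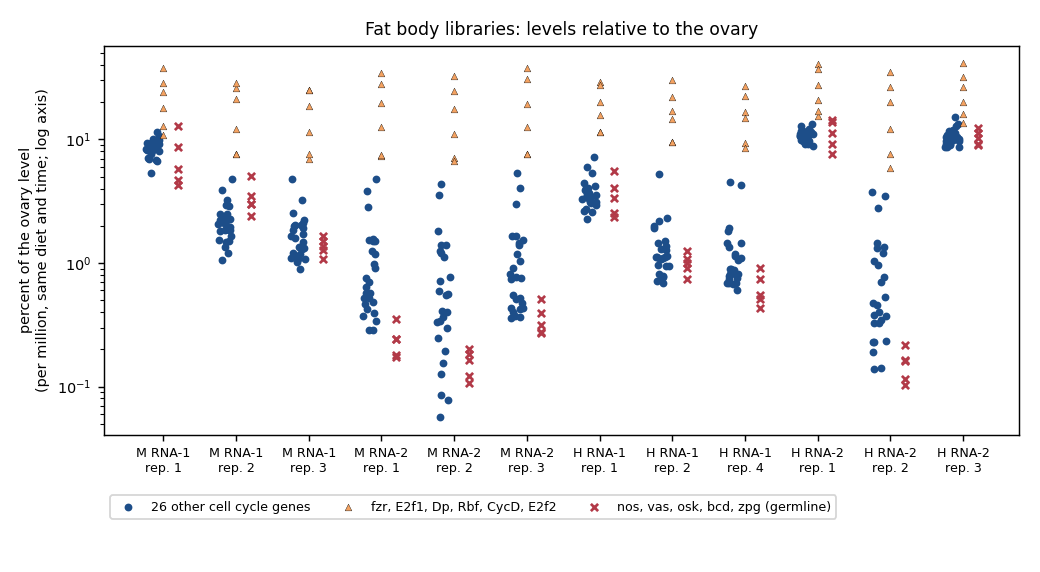
Level of each gene in the 12 fat body libraries as a percentage of its ovary level at the same diet and time (y axis, log scale, CPM); blue points are 26 cell cycle genes, triangles the 6 genes least enriched in ovaries, and crosses 5 germline genes. In H RNA-2 replicates 1 and 3 the cell cycle and germline genes lie together near 10 to 11%, and in H RNA-2 replicate 2 the germline median is 0.16%.

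The fat body change of a gene was related to its excess in ovaries over fat body. Across the 32 genes, which share their libraries, Spearman's rho was -0.84 for the change in M, 0.45 for the change in H and 0.83 for the difference between them (Pearson's r of -0.80, 0.81 and 0.89), given as a description. The same fat body values enter both the change and the excess, so part of this relation may be built into the measures. The difference between the diets had a median of 3.00 log2 units, called for 0 of 32 genes (limma; 2.02% of all genes), with 20 at an unadjusted p under 0.05 (24.1% of all genes). H against M called 0 genes at RNA-1 (0.986% of all genes), with 0 unadjusted (15.8%), and 0 at RNA-2 (0.599%), with 19 unadjusted (22.5%). H RNA-2 replicate 2 decided these counts. Without it, 29 genes passed the diet by time test, where 21% of all genes did. In the same fit 28 genes rose in H, 29 were higher in H than M at RNA-2, and in M 12 fell beside E2f1. The shares of all genes for these last counts are not given here, so they stand without a background. With the 3 libraries richest in germline RNA set aside, a choice made after seeing the data, only E2f1 was called in M and none in H, and the median difference between the diets was -0.03, with 1 library left in H RNA-2, assumed to vary like the other groups. With the germline mean as a covariate, Cdk2, E2f1, E2f2, Orc2 and PCNA were called higher in M (median 0.75) and E2f1, dpa and geminin in H (median 0.32). The shares of all fat body genes called in that fit are not given here, so these counts too stand without a background.

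Of 127 further cell cycle genes tested in fat body, 1 rose in M (mip40, by 0.42), and 6 rose and 1 fell in H, which is 0.787% and 5.51% called where 13.6% and 15.3% of all fat body genes were. In H those with the smallest p were Cks85A (-0.83), RPA1, a subunit of the single-strand DNA binding protein (0.72), and mip40, of the Myb-MuvB complex (0.46).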

How the data were processed

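Per the submitters' processing notes, the authors estimated counts per gene with kallisto 0.46.1 (genome build BDGP6) and normalized them with DESeq2 1.28.1 in R 4.0.1. The values were deposited as 1 table per tissue, so no test was made across tissues. The deposited signal values are these normalized counts. The deposited tables also hold the authors' log2 fold changes over time for either diet, with p-values and FDR, which were not used. The library kit kept strand, the counting's strand setting is not stated in the sources used here, and 14 of the 32 genes are overlapped by a gene on the other strand and 2 by one on the same strand. Between 39.9% and 81.7% of low values came out as whole reads (within 0.05), so no count model was fitted.

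A gene was tested in a tissue if 3 or more of the 12 libraries reached 10 normalized counts. log2(value + 1) was fitted with limma 3.58.1 (statmod 1.5.0, R 4.3.3) with the 4 group means of each tissue, trended and robust variances, and p-values were adjusted over all genes of the tissue (Benjamini-Hochberg, threshold 0.05). Fold changes are on the log2(value + 1) scale. Depth was estimated from the value of a single read. The fit was tested on simulated data. The genes and the further lists were chosen with earlier results of these data known. All 32 genes could be named; of the 128 further genes, per sub-list those with the smallest p on each side in ovaries (up to 2), and up to 3 in all per comparison in heads and fat body. Alternatives were other normalizations, filters, pseudocounts, thresholds and variance models, the 6 libraries alone, a replicate block, a germline covariate and leaving out each library. Chosen after seeing the data were the eggshell covariate, removal of a transcript length trend (span 0.4) and the libraries set aside.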

Additional observations from a re-analysis of the deposited data

Results flagged for a closer look

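Among the further cell cycle genes, Cks85A, a small subunit that binds cyclin-dependent kinases, changed differently with time in the fat body of the 2 diets. The difference between the changes (H minus M) was -0.65 log2 units (95% interval -0.87 to -0.42, limma adjusted p = 0.019). The gene fell by 0.83 in H (adjusted p = 0.00012) and had a change of -0.18 in M (adjusted p = 0.12), and at RNA-1 it was 0.59 higher in H than in M (adjusted p = 0.010). The H RNA-1 libraries enter each of these comparisons except the change in M.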

How the results depend on the processing

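For single genes, 11250 of the values under an alternative kept their side of the threshold, 293 lost the call, 195 gained one and 6 reversed. Reversed means a change of direction in a gene called in the main fit or under the alternative. Changes of direction in genes called in neither are among the 11250 and were not counted. The reversed values were Mcm6 in M ovaries with the eggshell covariate (-0.000961), fzr in M heads after division by library totals (0.20), and, in M fat body with the germline covariate, Cdk2 (1.21), PCNA (1.19), Orc2 (1.69) and E2f2 (0.67). Why they turned was not tested.

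In ovaries the count of called genes with time in M (10) became 2 at an adjusted p under 0.01, 5 with the 6 libraries alone, 16 with library totals and 0 with the eggshell covariate, which also gave 0 in H (25). At RNA-1 (19) these settings gave 2, 8 and, with the eggshell covariate, 10. In heads the count in M (5) became 0 at 0.01, 2 with the 6 libraries alone, 0 with M RNA-1 replicates 1 and 3 set aside (1 library left in that group), 8 with library totals and 3 with the replicate block. The count in H heads (0) became 1 with those replicates set aside, 2 with library totals, 2 with the germline covariate (CycB and CycB3, lower) and 1 with the length trend removed, and at RNA-1 (0) it was 1 with a filter of 50, quantile normalization or the length trend removed (E2f1). In fat body the count in M (1) became 4 with the 6 libraries alone and 5 with the germline covariate. In H (1) it became 0 at 0.01, with the 6 libraries alone, with 3 libraries set aside, with the replicate block or with the length trend removed, and 3 with library totals or the germline covariate. Except for the eggshell covariate, the shares of all genes called under these settings are not given here.

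Leaving out 1 library gave in ovaries 2 to 13 genes with time in M, 22 to 26 in H, 0 to 4 for diet by time, 1 to 22 at RNA-1 and 0 at RNA-2. In heads it gave 0 to 8, 0 to 6, 0 to 2, 0 to 4 and 0, and in fat body 1 to 13, 0 to 28, 0 to 29, 0 and 0 to 29. Library totals shifted the median of all fat body genes to 0.37 in H, 0.28 for diet by time, -0.12 at RNA-1 and 0.14 at RNA-2, and that of head genes in H to 0.16.

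Replicate numbers did not pair the libraries: same-numbered libraries had correlations of deviations of -0.12 to 0.28 in ovaries, -0.13 to 0.15 in heads and -0.26 to 0.38 in fat body. With the replicate block, ovaries had 9 genes higher and 1 lower in M, 20 and 3 in H, and 0 and 13 at RNA-1. Estimated depth was not the same in all ovary libraries. It was 203400000 and 222900000 read pairs in M RNA-2 replicates 1 and 3, and between 38250000 and 63950000 in the others. Depth is thus partly confounded with the M RNA-2 group, and its bearing on these values was not tested.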
